A study of Mus musculus with 5 samples.

Results

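The regions described here are the widest 5% of those that Runx3 bound in CD8-TC (CD8+ T cells) after activation with IL-2. They were chosen by width alone. Of 9135 called regions, 458 had a width (end minus start) at or above the 95th percentile of all widths, which was 856 bp. Of these, 2 regions in repeated sequence of chromosome 8, 2024 bp (chr8:19702942-19704965) and 5018 bp wide (chr8:19755009-19760026), were set aside. This left 456 regions, called the widest regions below, and 8677 others. The 456 regions with widths between the 90th percentile and the threshold (752 to 855 bp), called the next widest 5%, are part of these others and served as the comparison closest in width.

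The cells were splenic CD8+ T cells of ICR mice, isolated with anti-CD8 beads, TCR-activated with anti-CD3e and anti-CD28 for 2 days, and kept in 100 u/ml IL-2 for a further 4 days. ChIP-seq had been done with anti-Runx3 antibody (2 libraries), with non-immune serum, NIS, as control (2 libraries) and with anti-H3K4me1 antibody (1 library in the labels, whose protocol speaks of repeats for both antibodies). The labels give no genetic change for any of the groups. Reads of the repeats had been joined before peaks were called, so each region has 1 start and 1 end, with no replicate error. The lists give no read number or score, and the depth behind each region is unknown. Intervals in brackets are 95% intervals that cover counting error among regions only (Wilson for a share, Newcombe for a difference, exact Poisson for matches per kb), and regions are not replicates of a condition. Among the Runx3-bound regions, 8 lay nearest to a gene taken as a marker of CD8 T cells. These genes were Cd8a and Cd8b1, and the CD3 genes Cd3d and Cd247, which CD4 T cells share. Of these 8 regions, 1, at Cd247, was among the widest, where 5.01% of all regions passed the width threshold. Genes marking other cells had 5 regions for NK cells (1 among the widest, at Nkg7, which cytotoxic T cells also express), 4 for CD4 T cells, 2 for dendritic cells, 1 for B cells (Pax5) and 1 for macrophages or monocytes.

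Runx3 belongs to the RUNX family of transcription factors, which bind DNA as a heterodimer with Cbfb at a short motif, and it is required for the cytotoxic T cell program. Such a factor acts at promoters and at distant enhancers. H3K4me1, monomethylated lysine of histone H3, is abundant at enhancers and is typically low at the nucleosomes next to an active promoter. The width of a called region is set by the peak caller from the extent of the enriched reads.

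Sequences of members with many RUNX motif matches are shown first, because the results turn on the position of these matches. The RUNX motif was searched in 4 variants on both strands, the first being TGTGGT, the second with C as its last base (TGTGGC), and the others with C at their base 3 (either TGCGGT or, with both changes, TGCGGC). These 4 variants cannot match at the same base, and 24.6% of all 200-bp windows of the genome hold at least 1. The stretches are the 100 bases with the most matches in 4 of the 5 widest members (all but the widest) and in the 4 members with the most matches, leaving out stretches over a UTR. They are on mm9, plus strand, read 5′ to 3′, and capitals mark RUNX matches (a match to the other strand reads, for example, ACCACA). The first group comes from the former. It lies in an intron of E2f2 (chr4:135733673-135733772), an intron of 1600014C10Rik (chr7:38974225-38974324), a coding exon of Muc4 (chr16:32750460-32750559) and an intron of Prex1 (chr2:166482352-166482451).
E2f2: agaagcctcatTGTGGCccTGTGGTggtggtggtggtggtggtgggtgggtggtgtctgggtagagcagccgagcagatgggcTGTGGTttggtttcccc
1600014C10Rik: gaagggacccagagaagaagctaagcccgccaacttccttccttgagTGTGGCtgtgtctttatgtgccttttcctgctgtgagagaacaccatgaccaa
Muc4: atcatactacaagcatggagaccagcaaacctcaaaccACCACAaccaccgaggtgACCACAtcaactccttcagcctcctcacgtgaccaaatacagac
Prex1: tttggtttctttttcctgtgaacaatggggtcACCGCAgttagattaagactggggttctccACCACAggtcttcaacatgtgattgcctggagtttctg

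The second group comes from the members with the most RUNX matches. It lies in introns of Stx6 (chr1:157020147-157020246), Btbd9 (chr17:30655839-30655938), Tcea3 (chr4:135824941-135825040) and Mllt1 (chr17:57044285-57044384). The last 3 are named by the nearest protein-coding gene start, which is that of Gm9874, Zfp46 and 1700061G19Rik, respectively.
Stx6: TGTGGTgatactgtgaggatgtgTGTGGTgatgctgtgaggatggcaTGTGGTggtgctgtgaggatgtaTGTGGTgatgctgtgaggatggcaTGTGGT
Gm9874: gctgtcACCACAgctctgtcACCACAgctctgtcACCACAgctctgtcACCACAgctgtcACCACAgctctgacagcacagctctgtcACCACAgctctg
Zfp46: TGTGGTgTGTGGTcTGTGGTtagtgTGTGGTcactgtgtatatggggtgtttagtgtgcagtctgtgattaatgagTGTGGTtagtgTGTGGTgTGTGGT
1700061G19Rik: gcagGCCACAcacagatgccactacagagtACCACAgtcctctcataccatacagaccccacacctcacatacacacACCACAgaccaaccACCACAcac

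The wide members of the first group held dispersed matches, between 1 and 3 in the densest 100 bases shown. The members with the most matches held 4 to 7 in the stretch shown. At Stx6, Gm9874 and Zfp46 these lay in short repeats in which the motif recurs, and at 1700061G19Rik they were irregularly spaced. Over their whole length these held 33 matches in 1041 bp at Stx6, 27 in 942 bp at Gm9874, 18 in 893 bp at Zfp46 and 14 in 871 bp at 1700061G19Rik. Of these 4 members, 3 were less unique in sequence. The share of 32-base words found once in the genome was 71.0% at Stx6, 69.3% at Gm9874, 89.2% at 1700061G19Rik and 100% at Zfp46.

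Widths of the members ranged from 856 to 1881 bp, with a median of 981.5 bp and quartiles of 906 and 1070 bp, compared to a median of 512 bp for the others. These widths are what the rule used and carry no test. Of the 456 members, 208 were wider than 1000 bp and 8 wider than 1500 bp, and all members together made up 9.32% of the bases in the list. The threshold fell in a continuous distribution. At exactly 856 bp lay 3 members, in an intron of Klf13, at Atxn2l and at Sin3a. Just outside, at 855 bp, lay 2 regions, 13.0 kb upstream of Nudcd1 and 10.1 kb upstream of Osgin1.

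**Figure D1:**
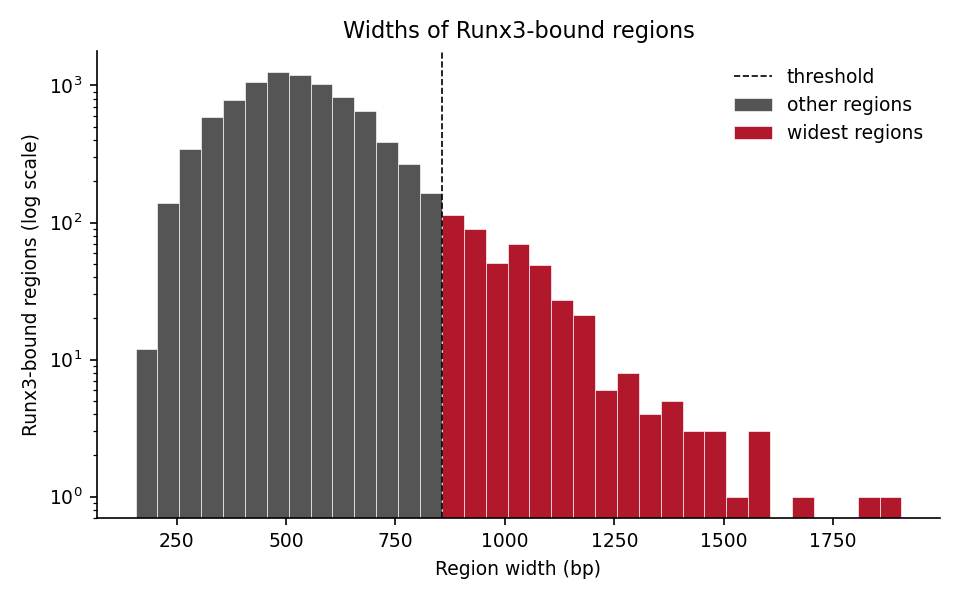
Number of Runx3-bound regions (log axis) by width in bp, in 50-bp steps, without the 2 regions set aside. The dashed line marks the threshold of 856 bp, which cuts the upper tail of a distribution without a gap, and the widest member reaches 1881 bp.

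RUNX motifs lay at the centre of fewer members than of other regions. At least 1 RUNX match fell in the central 200 bp of 238 of the 456 members, 52.2% [47.6 to 56.7], compared to 80.2% [79.3 to 81.0] of the other regions and 78.8% of all 9135. The members' share was above the 24.6% of all 200-bp windows of the genome. The difference from the others was −28.0 percentage points [−32.6 to −23.3]. Against the next widest 5%, of which 76.1% held a central match, it was −23.9 points [−29.8 to −17.8]. The share was lower within each class of distance from a transcript start. It was 49.7% of members against 73.8% of others under 1 kb, 48.1% against 82.0% at 1 to 5 kb, and 55.4% against 82.5% over 5 kb. Median distance from the centre to the closest RUNX match was 94 bp in members, 47 bp in the next widest 5% and 41 bp in the others. The list gives no summit, so the centre is the midpoint between start and end.

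The members' matches were densest on both sides of the centre. In 100-bp steps of distance from the centre, with both sides added, members held 4.04 RUNX matches per kb in the first 100 bp, 5.63 from 100 to 200 bp, 4.93 from 200 to 300 bp, 3.67 from 300 to 400 bp and 2.21 from 400 to 500 bp. The other regions held 6.79 matches per kb in the first 100 bp, 3.02 from 100 to 200 bp and 1.94 from 200 to 300 bp. Beyond 500 bp both sets were near 2 matches per kb, with 2.00 and 1.83 from 500 to 600 bp. The members thus had a density with 2 maxima and a minimum at the centre, and the others a single central maximum. This was seen near genes and away from them. Over 5 kb from a transcript start, members held 3.60 matches per kb in the 50 bp left of the centre and 6.58 per kb from 200 to 150 bp left, where the others held 8.44 and 2.36. To the right, members held 5.14 per kb in the first 50 bp (57 matches) and 6.85 from 100 to 150 bp (76 matches). From 150 to 200 bp right they held 5.23. No interval was computed for these 50-bp steps, and the depth of the dip was not compared between sides. Under 1 kb, members held 1.83 per kb in the 50 bp left of the centre and 3.53 in the 50 bp right, and the others 6.15 and 6.74.

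**Figure D2:**
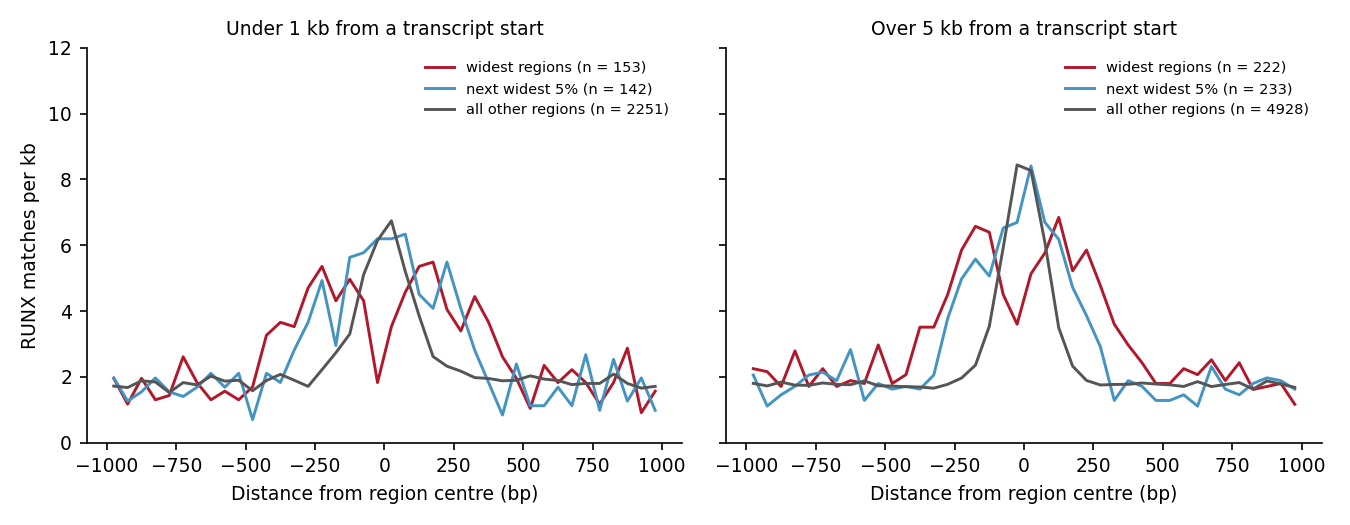
RUNX matches per kb in 50-bp steps by distance from the region centre (bp), for members (red), the next widest 5% (blue) and all other regions (grey, which include the blue set), under 1 kb and over 5 kb from a transcript start. The grey lines have 1 central peak, reaching 8.44 matches per kb over 5 kb from a start. There the red line falls to 3.60 just left of the centre and stands at 5.14 just right of it.

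To count this by region, each side from 100 to 500 bp from the centre was taken as an arm. A RUNX match lay in both arms of 313 members, 68.6% [64.2 to 72.7], compared to 32.2% [31.2 to 33.2] of the others and 34.0% of all regions. The difference was 36.5 percentage points [31.95 to 40.7] against the others and 18.4 points [12.1 to 24.6] against the next widest 5%. Both arms but not the middle were matched in 143 members, 31.4% [27.3 to 35.8], compared to 6.96% of the others and 14.5% of the next widest 5%. Against the next widest 5% the difference was 16.9 points [11.5 to 22.2]. Under 1 kb from a transcript start it was 9.74 points [−0.0388 to 19.2], which includes 0. The middle alone was matched in 6 members, 1.32% [0.604 to 2.84], compared to 16.8% of the others and 10.1% of the next widest 5%. Left and right arms were alike in members, with a match in 81.8% and 83.8%. The arms have the same length in every region, but in a narrow region they lie in part outside the called sequence. When each region was instead divided into 10 equal parts along its own length, the middle pair of parts held 8.24% and 10.7% of the members' matches and 17.6% and 18.1% of the others'.

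Across the whole width range, the largest change in the central and arm shares came at the upper end. With all regions in 20 bins of equal size ordered by width, the share with a central match was between 75.4% and 84.0% in bins 1 to 19 and 52.4% in the widest. The share with matches in both arms was 22.8% to 38.1% in bins 1 to 18, 50.1% in bin 19 and 68.9% in bin 20. The density per kb of called sequence, in contrast, differed little. Members held 1904 matches in 462 kb, or 4.12 per kb [3.94 to 4.31], and the others 4.30 per kb [4.24 to 4.36]. In a central window of 1000 bp, equal for all regions, members held a mean of 4.09 matches. The next widest 5% held 3.81 and the others 3.05. This mean was 2.66 in bin 1 and 4.10 in bin 20. The window extends beyond the called sequence of regions narrower than 1000 bp.

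**Figure D3:**
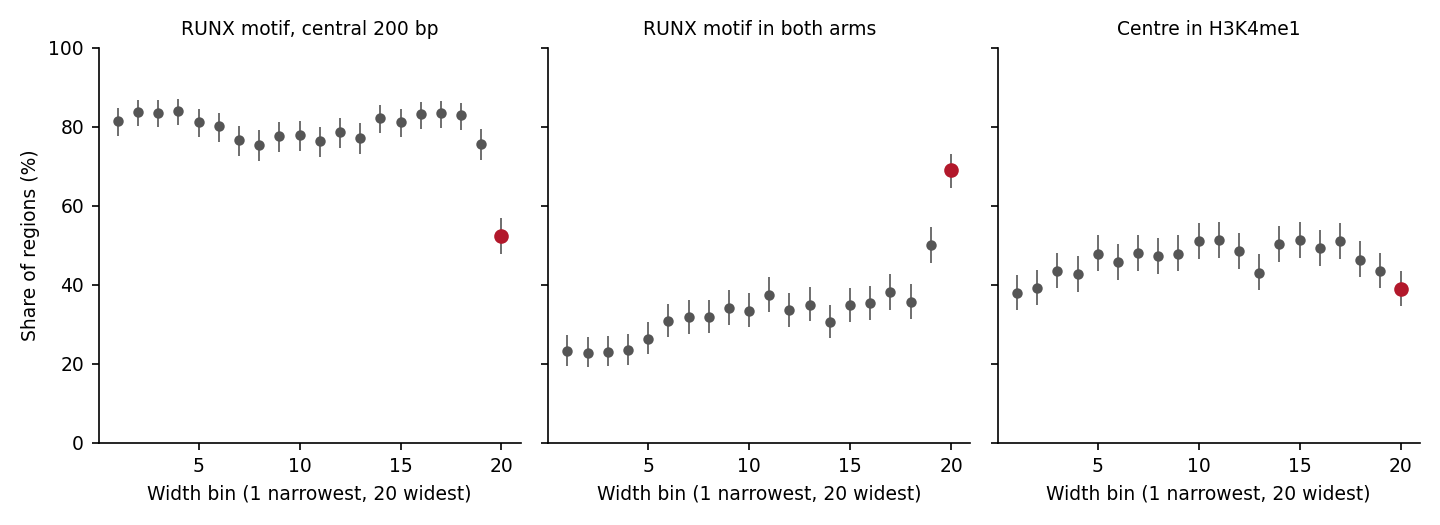
Share of regions (%) in 20 bins of equal size from narrowest (1) to widest (20), with 95% Wilson intervals, for a RUNX match in the central 200 bp, a RUNX match in both arms, and a centre in an H3K4me1-marked region. The widest bin (red), which holds 454 of the 456 members, stands at 52.4%, 68.9% and 39.0%.

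All 4 RUNX variants contributed to the arms. TGTGGT was found in an arm of 76.1% of members (50.9% of others), TGTGGC in 59.2% (44.6%), TGCGGT in 30.5% (11.9%) and TGCGGC in 24.6% (14.6%). In the central 200 bp, TGTGGT was found in 25.7% of members and 55.8% of others, TGTGGC in 20.4% and 27.2%, and TGCGGT in 7.46% and 14.0%. For TGCGGC the values were 8.77% and 8.37%, a difference of 0.405 points [−1.94 to 3.41] that includes 0. Of all 200-bp windows of the genome, 13.8% hold the first of these variants, 10.6% the second, 1.16% the third and 1.14% the last.

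Members without any RUNX match numbered 8, or 1.75%, and a further 29 had 1 match. Between 2 and 4 matches were held by 265 members, 5 to 9 by 140 and 10 or more by 14. These counts grow with width and are given as description. The 8 without a match included regions at the starts of Ppp1r11 and Atxn2l. Another lay in Tmc6, centred 0.935 kb upstream of the start of Tmc8. A 1046-bp region lay 162 kb upstream of Foxp1, a forkhead factor of quiescent T cells.

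Motifs of other factors were counted in the same windows. The ETS motif, bound by factors such as Ets1 that pair with RUNX proteins, was searched on both strands as GGAA with A or C before it and A or G after it (41.7% of all 200-bp windows of the genome). A match next to a RUNX match can share its outermost base. It was found in the central 200 bp of 57.5% of members [52.9 to 61.9] and 66.6% of the others, a difference of −9.15 points [−13.8 to −4.58]. Its density in members was 4.53 per kb in the first 100 bp from the centre, 4.66 from 100 to 200 bp and 4.55 from 200 to 300 bp, where the others fell from 5.61 to 4.03 and 3.54. The AP-1 motif, TGACTCA and its reverse complement, was found centrally in 18 members, 3.95% [2.51 to 6.15], and in 6.63% of the others (3.11% of all windows). It was found in an arm of 17.8% of members and 14.6% of others, a difference of 3.13 points [−0.196 to 6.97] that includes 0. The GC-box, GGGCGG on both strands and bound by SP1-type factors at promoters, was found centrally in 19.74% of members and 15.2% of others (1.96% of all windows), a difference of 4.56 points [1.08 to 8.53]. Within each distance class, and against the next widest 5% (3.51 points [−1.49 to 8.49]), the interval of the central difference included 0. Under 1 kb from a start, where more of the members lay, the central shares were 39.9% and 40.8%. In an arm, the GC-box was found in 41.9% of members and 26.7% of others, a difference of 15.2 points [10.7 to 19.9], and of 9.43 points [3.16 to 15.6] against the next widest 5%. The arm difference from the others was 10.2 points [2.41 to 16.8] under 1 kb, 11.4 points [2.34 to 22.3] at 1 to 5 kb and 12.0 points [6.72 to 18.1] over 5 kb from a start. For AP-1 and the GC-box, as for RUNX, the arms of a region narrower than 1000 bp, many members among them, lie in part outside its called sequence. Members were also richer in GC (values below), and the parts of width and GC content in these differences were not tested.

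Where the members lay in the genome also differed from the others. Centres of 153 members, 33.6% [29.4 to 38.0], were under 1 kb from an annotated transcript start, compared to 25.9% of the others and 26.3% of all regions, a difference of 7.61 points [3.33 to 12.2]. A further 81 members (17.8%) were 1 to 5 kb and 222 (48.7%) were over 5 kb from a start, compared to 17.3% and 56.8% of the others. The next widest 5% were close to the members, with 31.1% under 1 kb and a difference of 2.41 points [−3.65 to 8.45] that includes 0. Of the 153 members at starts, 106 were CpG-rich (at least 50% GC and an observed to expected CpG ratio of at least 0.6), or 69.3% [61.6 to 76.0], compared to 60.5% of the others at starts. Against the next widest 5% at starts, with 62.7%, the difference was 6.60 points [−4.17 to 17.2], which includes 0. Protein-coding gene starts on opposite strands lay within 1 kb of 17 members, 3.73%, and of 2.52% of the others, a difference of 1.20 points [−0.227 to 3.39] that includes 0. Centres of 198 members were intergenic, 187 intronic, 42 in a UTR, 18 in a coding exon and 11 in a noncoding exon. Mean GC content was 52.5% ± 6.72 (SD over 456 members), compared to 50.3% ± 7.73 (SD over 8677 others) and 51.6% in the next widest 5%. Under 1 kb from a start the means were alike, 58.1% in members and 58.0% in the others. At 1 to 5 kb they were 50.9% and 48.5%, and over 5 kb 49.2% and 47.4%.

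H3K4me1 covered the surroundings of members more often than their centres. The centre of 177 members, 38.8% [34.5 to 43.4], lay in an H3K4me1-marked region, compared to 46.7% of the others and 46.3% of all regions, a difference of −7.86 points [−12.3 to −3.19]. Against the next widest 5%, with 43.6%, it was −4.82 points [−11.2 to 1.56], which includes 0. The direction turned when regions closer than 1 kb were merged before ranking, with 47.4% of members and 46.2% of others. A low share was not particular to the widest regions. In the 20 width bins it was 37.9% in bin 1 and 39.2% in bin 2, the narrowest, compared to 39.0% in bin 20. The highest share was 51.4%, in bins 11 and 15. Within distance classes the interval of the difference from the others excluded 0 only at 1 to 5 kb, with 38.3% of members and 54.4% of others (−16.1 points [−26.3 to −4.96]), and there it was −11.1 points [−25.6 to 4.09] against the next widest 5%. Over 5 kb the shares were 59.5% and 59.8%, and under 1 kb 9.15% and 12.7%, with intervals of the difference of −7.09 to 6.01 and −7.45 to 2.22 points. An overlap of at least 1 bp anywhere was found in 294 members, 64.5% [59.98 to 68.7], and in 56.9% of the others, although wider regions overlap more by their width alone. In 117 members, 25.7% [21.9 to 29.9], the mark overlapped the region but not its centre, compared to 10.3% of the others and 23.7% of the next widest 5%.

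At fixed distances from the centre, members over 5 kb from a transcript start were covered by H3K4me1 in 78.8% of cases 750 bp to the left, in 59.5% at the centre and in 73.0% 750 bp to the right. The others were covered in 56.9%, 59.8% and 56.9%. The differences from the others at 750 bp were 21.9 points [15.9 to 27.0] and 16.0 points [9.69 to 21.6]. Against the next widest 5%, with 77.7% and 78.1%, they were 1.15 points [−6.46 to 8.69] and −5.14 points [−13.0 to 2.75]. Both of these intervals include 0. Cover on both sides but not at the centre was found in 16.2% of these members, 6.13% of the others and 18.9% of the next widest 5%. The difference between members and the next widest 5% was −2.67 points [−9.64 to 4.38], which includes 0. Where the centre was marked, the H3K4me1-marked region had a median width of 2518 bp for members, 2275 bp for the next widest 5% and 2106.5 bp for the others.

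**Figure D4:**
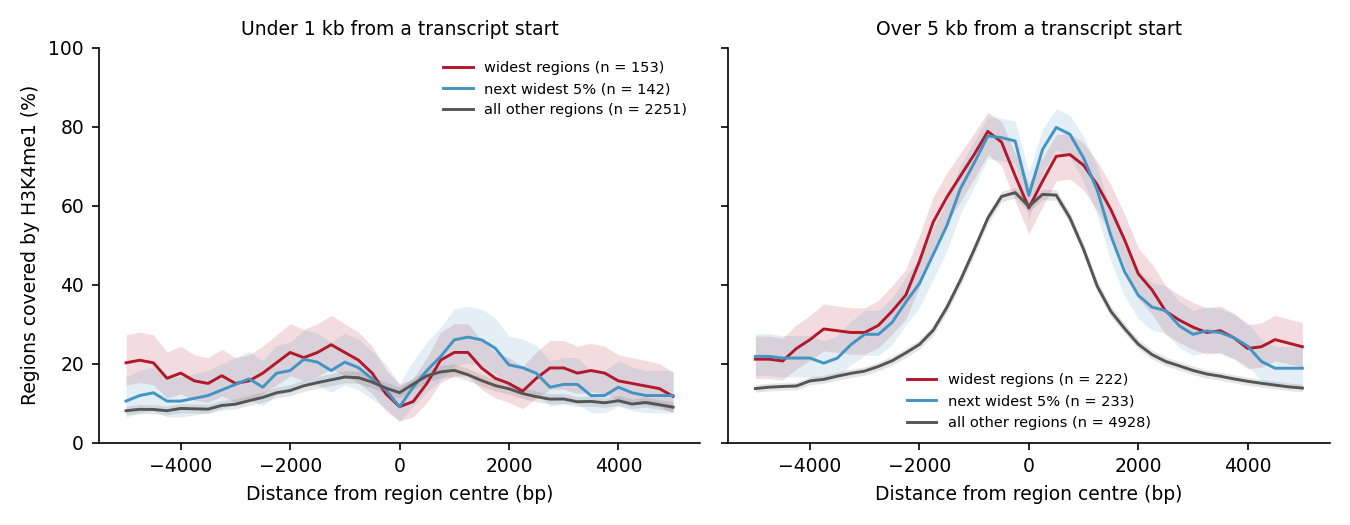
Share of regions (%) covered by an H3K4me1-marked region, in 250-bp steps up to 5 kb from the centre (bp), with 95% Wilson bands, for members (red), the next widest 5% (blue) and all other regions (grey, which include the blue set). Over 5 kb from a start the red and blue lines dip at the centre, from 78.8% to 59.5% for members, and run close together, above the grey line on both sides.

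Members had called neighbours more often. The centre of another Runx3-bound region lay within 10 kb of 195 members, 42.8% [38.3 to 47.3], compared to 33.0% of the others and 33.5% of all regions, a difference of 9.76 points [5.18 to 14.4]. Against the next widest 5% (40.4%) it was 2.41 points [−3.97 to 8.77], which includes 0. The list kept close regions apart, with edge to edge gaps down to 2 bp and 131 gaps under 200 bp. A gap under 200 bp to another region was found for 17 members, 3.73% [2.34 to 5.89], and for 2.81% of the others.

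The widest members are described next by the nearest protein-coding gene start. No expression was measured in these lists, and the nearest gene is a label of position. The widest, 1881 bp, lay 57.6 kb downstream of the start of Map3k8 (chr18:4294433-4296313), a MAP kinase kinase kinase of inflammatory signalling, held 8 RUNX matches and was intergenic. It was 55.9% covered by H3K4me1, but not at its centre. The second, 1821 bp, lay in E2f2 (chr4:135733170-135734990), 5.77 kb from the start of this cell cycle transcription factor. It held 7 RUNX matches with both arms matched and was 56.3% covered by H3K4me1, again not at its centre. Next came 1677 bp in 1600014C10Rik (chr7:38973419-38975095) and 1583 bp in Muc4, a mucin (chr16:32750046-32751628), both entirely marked by H3K4me1, with 3 and 11 RUNX matches.

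Of the 20 widest members, 5 lay under 1 kb from a transcript start with a RUNX match in both arms and a centre outside H3K4me1. These were 1512 bp at Klf13, a zinc-finger factor (chr7:71083357-71084868, 9 RUNX matches), 1462 bp at Eed, a core subunit of Polycomb repressive complex 2 (chr7:97128380-97129841, 8 matches), 1431 bp at Tgfb1, the cytokine TGF-β1 (chr7:26472152-26473582, 4 matches), 1417 bp at Shisa5 (chr9:108953300-108954716, 7 matches, with Trex1 as the nearest protein-coding start) and 1363 bp at Birc5, the mitotic protein survivin (chr11:117709534-117710896, 8 matches). At Klf13, Shisa5 and Birc5 no match lay in the central 200 bp. H3K4me1 covered 3.37% of the Klf13 region and none of the other 4.

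A further 5 of the 20 lay in introns or coding sequence of other genes or between genes. A region of 1405 bp lay 16.5 kb upstream of Srgn (chr10:62005975-62007379), the proteoglycan that packs granzymes in granules, in an intron of 2510003E04Rik. It held 2 RUNX matches, 1 in each arm, and was 13.9% covered by H3K4me1. A region of 1396 bp lay 13.6 kb upstream of Ifngr2 (chr16:91533050-91534445), a chain of the interferon-γ receptor, with 7 RUNX matches and no H3K4me1. A region of 1364 bp in an intron of Eps15l1 lay 35.2 kb from Klf2, a quiescence and migration factor (chr8:74877467-74878830), with 2 matches, none in the centre, and full H3K4me1 cover. The region with most RUNX matches among the 20, 13 in 1349 bp, lay 17.4 kb from the start of Grb7 (chr11:98324399-98325747). Next came 12 matches in 1466 bp in Lrrc8a, a subunit of a volume-regulated anion channel (chr2:30112293-30113758, nearest protein-coding start Phyhd1).

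A further 5 of the 20 were 1328 to 1576 bp wide. They lay in an intron of Prex1 (1576 bp), 161 kb upstream of Gm9869 (1564 bp), in an intron of Itpk1 with Chga as the nearest protein-coding start (1440 bp), in Padi2 with Sdhb nearest (1382 bp), and in an intron of Fnbp1 with Usp20 nearest (1328 bp). Their RUNX matches ranged from 2 to 8. Beyond the 20 widest and the 4 members with the most matches, the most matches in a member were 11. One such member, 1265 bp wide, lay 10.3 kb upstream of Il21r (chr7:132735962-132737226), the IL-21 receptor, and was fully covered by H3K4me1.

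Several genes had more than 1 member. The 456 members had 427 nearest protein-coding genes, of which 401 were nearest to 1 member, 23 to 2 and 3 to 3. The genes with 3 were Runx3, Prex1 and D130062J21Rik, which were nearest to 6, 12 and 9 Runx3-bound regions in all. Those with 2 and the largest summed width were Tgfb1 and Ifngr2, nearest to 2 and 4 regions. Over all regions, 5.01% passed the width threshold. At Runx3 itself (chr4:134676567-134733905, plus strand), 3 of the 6 nearest Runx3-bound regions were members. They were 1202 bp at 40.2 kb upstream (2 RUNX matches), 1307 bp at 21.6 kb upstream (8 matches) and 1142 bp across the gene start (11 matches). The region at 21.6 kb upstream was marked by H3K4me1 at its centre and 97.6% covered, that at 40.2 kb upstream was 44.3% covered outside its centre, and that at the start was not covered. All 3 had RUNX matches in both arms. The region at 21.6 kb upstream (chr4:134654325-134655631) was chosen, after its values were seen, to show matches in both arms. Its central 200 bp held 1 match as well. The 80 bases around most matches of its left arm (chr4:134654652-134654731) and right arm (chr4:134655316-134655395), intergenic and on the plus strand of mm9, hold 2 and 3 RUNX matches (capitals) at 286 bp to the left and 378 bp to the right of its centre.
Runx3 left arm: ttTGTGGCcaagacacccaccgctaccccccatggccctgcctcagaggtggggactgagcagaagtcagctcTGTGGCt
Runx3 right arm: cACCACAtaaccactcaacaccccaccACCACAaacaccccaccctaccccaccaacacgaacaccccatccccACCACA

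At Prex1, a guanine nucleotide exchange factor for Rac, the 3 members were intronic, 1576, 1034 and 857 bp wide and 57.4, 48.1 and 5.30 kb downstream of the start. They held 6, 3 and 2 RUNX matches. The 1034 and 857-bp regions were wholly marked by H3K4me1, and the 1576-bp region was 28.2% covered. The 3 members nearest to D130062J21Rik all lay in introns of Bach2, a repressor that restrains effector differentiation of T cells, whose annotated start is farther away. They began 11.3, 19.1 and 104 kb downstream of the start of Bach2, were 1268, 957 and 1085 bp wide, and held 5, 7 and 6 RUNX matches, with both arms matched in each. H3K4me1 covered none of the first, 60.1% of the second outside its centre and 93.6% of the third.

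**Figure D5:**
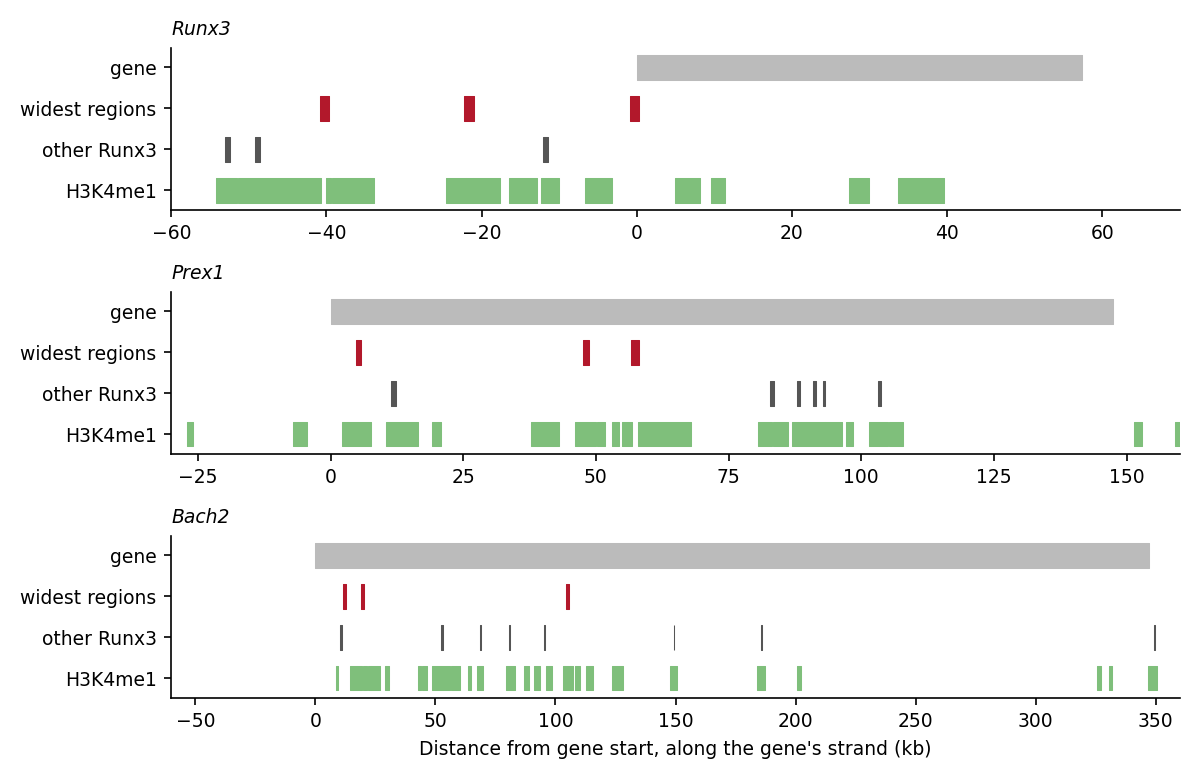
Maps of Runx3, Prex1 and Bach2 by distance from the gene start along the gene's strand (kb), with the gene body (grey), members (red), other Runx3-bound regions (dark) and H3K4me1-marked regions (green), to scale. Each locus shows 3 members: 2 upstream and 1 at the start for Runx3, and all within the gene body for Prex1 and Bach2.

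Genes of T cell function were examined by lists, by how many of the regions nearest to a list's genes were members. For comparison, 5.01% of all regions passed the width threshold. Of the 200 regions nearest to a lymphocyte transcription factor gene, 17 were members, 8.50% [5.37 to 13.2], at 13 of the 52 genes of the list with a region. Besides Runx3, with 3, these were Klf2 and Runx1, with 2 each, and Eomes, Fli1, Fos, Foxo1, Hif1a, Myb, Nfatc2, Nfkb1, Nr4a1 and Prdm1. Of the 107 regions nearest to cytokine receptor and JAK-STAT genes, 10 were members, 9.35% [5.16 to 16.4], at Ifngr1, Ifngr2 and Socs1 with 2 each, and at Ifnar1, Il21r, Stat4 and Tgfbr1. When regions were assigned to every gene within 5 kb, 13 of 119 regions of the transcription factor list were members, 10.9% [6.50 to 17.8], and 4 of 65 of the cytokine receptor and JAK-STAT list, 6.15% [2.42 to 14.8]. A second Ifngr2 member, 1051 bp, lay 0.762 kb upstream of its start (8 RUNX matches, 87.3% covered by H3K4me1).

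Among T cell receptor signalling and costimulation genes, 6 of 100 regions were members, 6% [2.78 to 12.5], and 8 of 80, 10% [5.15 to 18.5], when regions were assigned to every gene within 5 kb. The widest was 1102 bp in an intron of Vav1, a guanine nucleotide exchange factor of the receptor pathway, fully marked by H3K4me1. Others included regions across the start of Rasgrp1, a Ras activator (1029 bp, 1 RUNX match), in an intron of Cd247, the CD3 zeta chain (937 bp, 7 matches), and at Ptpn22 and Tnfrsf9. Among survival and cell cycle genes, 4 of 78 regions were members, 5.13% [2.01 to 12.5], and 3 of 48, 6.25% [2.15 to 16.8], within 5 kb. The 4 lay at E2f2, Mcl1 (1226 bp, 10.4 kb from the start), Cdk4 (1075 bp, across the start) and Pim1.

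Other lists changed direction with the assignment of regions to genes, so no order is given for them. Of 42 regions nearest to cytotoxic effector genes 4 were members, 9.52% [3.77 to 22.1], but when regions were assigned to every gene within 5 kb of them only 1 of 28 was, 3.57%. The 4 were the Srgn region, a 1001-bp region at the start of Nkg7, a granule protein gene (chr7:50691791-50692791, 4 RUNX matches, both arms matched, no H3K4me1), and 2 upstream of Gzmb, granzyme B. These lay 34.1 kb (909 bp, chr14:56914717-56915625) and 14.0 kb (866 bp, chr14:56894651-56895516) upstream, and the latter had 48.5% unique 32-base words. For chemokine, homing and adhesion genes the values were 3 of 74, 4.05%, and 3 of 38, 7.89%. The 3 were 1069 bp in an intron of Itgae, the CD103 integrin chain of tissue-resident T cells (chr11:72907651-72908719, fully marked), 874 bp at Ccr2 and 865 bp at Cxcr3, a chemokine receptor of effector T cells. Ribosomal protein genes, taken as a comparison unrelated to T cell function, gave 2 of 26, 7.69%, and 1 of 27, 3.70%. All 7 lists were chosen with earlier results of these data known, and no test was made on them.

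Uniqueness of sequence limits some members, since the authors used uniquely aligned reads. Of the 456 members, 66 (14.5%) had less than 95% unique 32-base words, compared to 12.4% of the others, a difference of 2.12 points [−0.898 to 5.71] that includes 0. The next widest 5% had 8.55%, a difference of 5.92 points [1.78 to 10.1]. Less than 80% was found for 15 members. The lowest were 11.1% in a region 73.4 kb from the start of Pdia4 and 20.04% upstream of Dynlt1b. A member of 1024 bp next to the 2 regions set aside (chr8:19784249-19785272) had 31.02%. With regions of at least 95% unique words alone, 52.6% of members and 80.2% of others had a central RUNX match, and 68.2% and 32.3% had matches in both arms.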

How the data were processed

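ChIP-seq reads had been aligned to mm9 by the authors, with ELAND, and those aligned uniquely were kept. They joined the repeats, scaled the larger read set to the smaller and ran MACS with the joined NIS reads as control. Each deposited list gave the start and end of a peak in bp and its name, with 0 further columns, so no peak score or read number was at hand to weigh a region. Joining hides the spread between repeats, and use of uniquely aligned reads limits regions in repeated sequence.

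Width was end minus start, and members were regions at or above the 95th percentile of all widths. Sequence and annotation were NCBIM37, which is mm9, and GENCODE vM1, with 86803 transcript starts and 22350 protein-coding genes. All regions ended within the chromosomes of this assembly. Printed coordinates are counted from 1 and include both ends, so a printed start is 1 more than the deposited start used for the width. A centre is the midpoint of a region. Motifs were counted on both strands in windows of fixed length, and shares of genome windows come from all 200-bp windows without gaps. Uniqueness was the share of 32-base words found once in the genome, which is not the aligner's own measure.

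Named regions were the 20 widest, the 5 others with the most RUNX matches, the 3 widest at each gene list and those of the 5 genes with the most members. Members with no RUNX match, with few unique words or at the threshold, members named in gene lists beyond these, and the Runx3 arm sequences were chosen after their values were seen. Sequence of the widest member and some named regions are not reported here. The members and lists were chosen with earlier results of these data known, and the arms from 100 to 500 bp were defined after the profile was seen. No permutation test or set test was run, since the lists hold 1 value for each region. Functions were checked against direct counting on simulated data. The software was numba 0.67.0, SciPy 1.17.1, pandas 2.3.3 and NumPy 2.4.6 under Python 3.11.15, with matplotlib 3.10.9 for plots. Alternatives were other percentiles, merging of regions closer than 1 kb, ranking within distance classes, autosomes only and other windows, overlaps and motifs.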

Additional observations from a re-analysis of the deposited data

How the results depend on the processing

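The 6 main shares and densities were recomputed under other choices, and 53 alternative values were obtained over 13 results. Of these, 48 kept the direction of the difference between members and others and 5 did not. No paired analysis was possible because the peak lists were made from joined repeats, so replicate numbers carry no value of their own.

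The share of members with a centre in an H3K4me1-marked region (38.8%) depended on the definition. It was 64.5% (others 56.9%) for any overlap of 1 bp and 47.4% (others 46.2%) when regions closer than 1 kb were merged before ranking, both reversed in direction. It was 45.8% with at least 50% cover and 34.4% at the 99th percentile, in the same direction. The share with a RUNX match in the central 200 bp (52.2%) was 64.1% at the 90th percentile, 45.6% at the 99th, 35.9% after merging, 26.3% in the central 100 bp, 84.9% in the central 400 bp, 25.7% for TGTGGT alone and 57.5% in regions of 45 to 55% GC, below the others each time. In both arms (68.6%) it was 56.8% after merging, 62.5% for arms of 100 to 400 bp and 31.1% for TGTGGT alone, above the others each time. Matches per kb (4.12) were 3.39 after merging and 2.01 for TGTGGT alone. The share under 1 kb from a transcript start (33.6%) was 26.3% with 1 start per protein-coding gene. Ranking within distance classes, which fixes this share, gave 26.5%, close to the others by construction. A neighbour within 10 kb (42.8%) was found for 50% of members at the 99th percentile and 35.9% after merging, 28.3% within 5 kb and 76.8% within 50 kb. The other 3 reversals were the cytotoxic (3.57%), chemokine (7.89%) and ribosomal (3.70%) lists when regions were assigned to genes within 5 kb. The causes were not tested. Unique sequence, GC and the settings on both arms were added after seeing the data.

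With no read numbers, depth per region was unknown and could not be set beside width. The spread between the joined repeats could not be examined, and every interval covers counting among regions only.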

Other observations

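Members were spread over all autosomes. They made up between 2.79% (6 of 215, chromosome 18) and 6.67% (19 of 285, chromosome 19) of the regions of an autosome, and 1 of the 93 regions on the X chromosome, 1.08%. The X chromosome member was the 865-bp region at Cxcr3.

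The NFAT and T-box motifs were also counted in the central 200 bp. The NFAT letters TGGAAA, searched on both strands, were found there in 10.5% of members, 14.0% of the others and 21.3% of all 200-bp windows of the genome, the last a share without regard to GC content. The T-box motif (0.772% of all windows) was found in 5 members, 1.10%, and in 1.92% of the others, a difference of −0.828 points [−1.53 to 0.641] that includes 0.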
